A study of Mus musculus with 12 samples.

Results

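Dihydrotestosterone (DHT), a potent androgen that binds the androgen receptor directly, was given to M2-10B4 cells in regular medium, and its effect on messenger RNA was measured by RNA sequencing. M2-10B4 is an established stromal line from mouse bone marrow, of C57BL/6J X C3H/HeJ background. The comparison rests on 6 of the 12 libraries of the series, 3 from cells that received 10 nM DHT in regular medium and 3 from untreated cells in regular medium (control). The other 6 libraries come from cells in adipogenic medium (ADM), 3 with 10 nM DHT (ADM+DHT) and 3 without (ADM), and are used here only where the effect of DHT is set beside that in regular medium. ADM holds insulin, the glucocorticoid dexamethasone, rosiglitazone and serum stripped of steroids with charcoal. The regular medium holds none of these agents as far as the labels say. Which serum it holds, and whether that serum was stripped of steroids, is not given in the sources used here. DHT was renewed with the medium every 3 days over 9 days in all, so the values describe a long exposure and not the first hours after the hormone. The 3 samples of a group are labelled biological replicates of 1 cell line, so the p-values measure the spread between cultures of that line.

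The androgen receptor is a ligand-activated transcription factor of the nuclear receptor family. Without hormone it is held in the cytoplasm by chaperones. With hormone it moves to the nucleus and binds pairs of short DNA motifs that the glucocorticoid receptor also recognises, so the known targets of the receptors overlap in part. In marrow stroma, which makes bone, fat and the niche of blood cells, androgens are known to act on the choice between the bone and the fat lineage.

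Values are FPKM, fragments scaled to transcript length and to the size of the library, as the authors deposited them. The table for this pair holds 11600 protein-coding genes, and the smallest of their higher group means was 0.5 FPKM. Of these genes, 10820 had a group mean of at least 1 FPKM and were tested, and 780 did not. At that limit, Naaladl2 lay just inside with a higher group mean of 1.0001 FPKM, and AU021092 just outside with 0.99867 FPKM. Differences are DHT minus control on the log2(FPKM + 1) scale, given ± SE. This scale understates the change of genes near 0. A gene is said to have risen, fallen or changed where limma's adjusted p, by Benjamini and Hochberg over the 10820 genes, was below 0.05.

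The 6 libraries were much alike. FPKM summed to between 240590 and 248216, and 10518 to 10612 genes lay at 1 FPKM or more. Pearson's r of log2 values across genes, which are not independent replicates, was 0.988 to 0.99 within groups and 0.965 to 0.969 between groups. The 13 mitochondrially encoded genes took 10.1% ± 0.452 of FPKM with DHT and 9.57% ± 0.342 in control (SD, n = 3 each, exact two-sided permutation p = 0.2, smallest possible 0.1). Of 11 stromal markers, 8 have values and were present in all 6 libraries, with Col1a1 at 1539 to 1620 FPKM with DHT and 1468 to 1505 FPKM in control, and endoglin (Eng) lowest, under 1 FPKM. Thy1, Nt5e and Lepr were not analysed here. Of the marker genes of other cell types, 5 of 21 for macrophages and blood, 3 of 15 for endothelium, 4 of 17 for skeletal muscle and 6 of 14 for nerve and glia have values, and none of 13 for epithelium. Their summed levels were 12.6 to 16.4 FPKM with DHT and 16.5 to 18.5 FPKM in control for macrophages and blood, 1.46 to 1.86 FPKM with DHT and 1.57 to 1.92 FPKM in control for endothelium, 3.75 to 5.04 FPKM with DHT and 7.25 to 9.81 FPKM in control for muscle, and 47.9 to 52.7 FPKM with DHT and 40.1 to 44.8 FPKM in control for nerve and glia. In bulk RNA, fewer cells of a type and less RNA per cell cannot be told apart.

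DHT changed 2907 of the 10820 genes (26.9%), 1376 higher (12.7%) and 1531 lower (14.1%). With each library scaled to the same sum 1435 were higher and 1379 lower. That sum was far larger than any library's own, so this scaling also made the added 1 smaller beside the FPKM. Most differences were small. The median size among changed genes was 0.37, and 2226 of them lay under 1.5-fold. At 1.5-fold or more 681 genes changed (6.29%), 358 higher (3.31%) and 323 lower (2.99%). At 2-fold or more the counts were 127 higher and 105 lower, and at 8-fold or more 7 and 3. The median over all genes tested was -0.00591, so the centre of the distribution lay close to 0. The 3 DHT libraries and the 3 control libraries did not overlap in 4691 genes (43.4%). The authors' deposited table, whose headers name no test, gives a q below 0.05 to 992 of the genes that are higher with DHT and to 1096 of those that are lower.

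**Figure D1:**
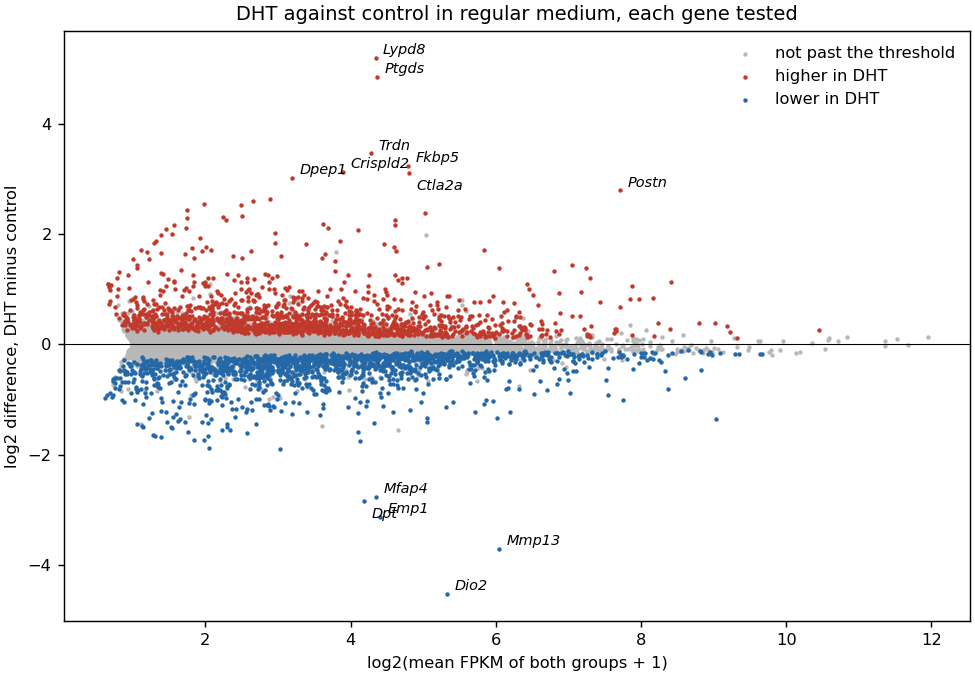
Mean level of each of 10820 genes (x axis, log2 of mean FPKM + 1) against its log2 difference, DHT minus control (y axis), with genes that rose in red and genes that fell in blue. A few genes, led by Lypd8 and Ptgds above and Dio2 and Mmp13 below, stand far outside a band in which 2226 of the 2907 changed genes lie under 1.5-fold.

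The largest rises were in genes that were nearly silent in control. Lypd8 (ENSMUSG00000013643.13, chromosome 11, 58379043 to 58390728 in GRCm38), a surface protein known from the mouse colon, where it keeps motile bacteria off the epithelium, had 37.5, 42.3 and 35.8 FPKM in DHT libraries, against 0, 0.0784 and 0.167 FPKM in control libraries. Its log2 difference was 5.19 ± 0.0891 (limma adjusted p = 2.56e-07). All 3 DHT libraries lay far above the control libraries, which stood at or near 0. Ptgds (ENSMUSG00000015090.13, chromosome 2, 25466709 to 25470046), the lipocalin-type prostaglandin D synthase, had 36.6, 45.1 and 35 FPKM in DHT libraries, against 0.548, 0.068 and 0.578 FPKM in control libraries. The groups were again far apart, and the difference was 4.85 ± 0.168.

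Next in size came genes already expressed in control. Trdn (ENSMUSG00000019787.9, chromosome 10, 33080554 to 33476709), which encodes triadin, a partner of the calcium release channel in muscle, had 29.8, 40.6 and 33.8 FPKM in DHT libraries, against 2.2, 2.3 and 2.11 FPKM in control libraries. Fkbp5 (ENSMUSG00000024222.16, chromosome 17, 28399095 to 28517524) encodes an immunophilin that binds steroid receptor complexes and is a textbook target of both androgen and glucocorticoid receptors. It had 49.9, 50.8 and 47 FPKM in DHT libraries, against 4.46, 3.92 and 4.61 FPKM in control libraries. The difference of Trdn was 3.47 ± 0.107 and that of Fkbp5 3.24 ± 0.0647, with narrow groups in both. Periostin, a secreted protein of the extracellular matrix, is encoded by Postn (ENSMUSG00000027750.16, chromosome 3, 54361109 to 54391037), the most abundant of these genes, with 362, 373 and 364 FPKM in DHT libraries, against 51.4, 53.1 and 51.6 FPKM in control libraries. Its libraries differed by little within each group, and its difference was 2.79 ± 0.0322 (limma adjusted p = 4.44e-08).

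The other large rises covered enzymes, inhibitors and cell surface genes. Crispld2, a secreted protein, differed by 3.13 ± 0.166, with control libraries spread from 1.42 to 2.94 FPKM. Ctla2a, an inhibitor of cathepsin L, differed by 3.1 ± 0.116, and Dpep1, a membrane dipeptidase, by 3.02 ± 0.0739. Aldh1a7, a member of the retinaldehyde dehydrogenase family with a close relative in Aldh1a1 with which short reads may be shared, differed by 2.63 ± 0.126. Sult1a1, a sulfotransferase for phenols, had 9.19, 10.04 and 10.1 FPKM in DHT libraries, against 0.855, 0.679 and 0.829 FPKM in control libraries, a difference of 2.59 ± 0.0746. The microtubule protein gene Map7d2 and the GABA receptor subunit gene Gabrr2 completed the 12 largest, at 2.55 ± 0.0972 and 2.53 ± 0.167. The 12 were chosen among genes whose groups do not overlap, so that feature is no result.

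The largest fall was in Dio2 (ENSMUSG00000007682.6, chromosome 12, 90724552 to 90738438), whose deiodinase turns thyroxine into active thyroid hormone. It had 2.28, 2.19 and 2.61 FPKM in DHT libraries, against 79.1, 75.7 and 74.2 FPKM in control libraries. The control libraries were all far higher and close together, and the log2 difference was -4.53 ± 0.0607 (limma adjusted p = 6.59e-08). Mmp13 (ENSMUSG00000050578.10, chromosome 9, 7272514 to 7283331), the collagenase of cartilage and bone turnover, had 7.16, 9.23 and 8.87 FPKM in DHT libraries, against 126, 111 and 128 FPKM in control libraries. All control libraries were above 100 FPKM and all DHT libraries below 10 FPKM, a difference of -3.71 ± 0.0952.

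Other large falls were in matrix and membrane genes. Emp1 (ENSMUSG00000030208.15, chromosome 6, 135362545 to 135383173), an epithelial membrane protein, had 3.18, 3.82 and 3.13 FPKM in DHT libraries, against 37.2, 36.3 and 37.9 FPKM in control libraries, a difference of -3.13 ± 0.0705. Dpt, which encodes the collagen-binding matrix protein dermatopontin, had 3.37, 3.8 and 3.21 FPKM in DHT libraries, against 30.1, 33 and 30.2 FPKM in control libraries, a difference of -2.85 ± 0.0693. In both genes the spread within groups was small beside the gap. Mfap4, a microfibril protein, had 4.19, 3.68 and 4.61 FPKM in DHT libraries, against 24.1, 41.1 and 39.2 FPKM in control libraries, and control replicate 1 was the lowest of its group. Its difference was -2.76 ± 0.192. Chodl, a lectin-like membrane protein, differed by -1.9 ± 0.0916, Gfra1, a receptor of glial cell line-derived neurotrophic factor, by -1.88 ± 0.0767, and Crabp2, a carrier of retinoic acid, by -1.76 ± 0.13. The N-acetyltransferase genes Nat8 and Nat8f3, which belong to a cluster of near-identical genes so that reads may be shared, differed by -1.73 ± 0.0898 and -1.67 ± 0.0879. The interferon-inducible genes Gbp3 and Ifit1 completed the 12, at -1.61 ± 0.0787 and -1.58 ± 0.0802.

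**Figure D2:**
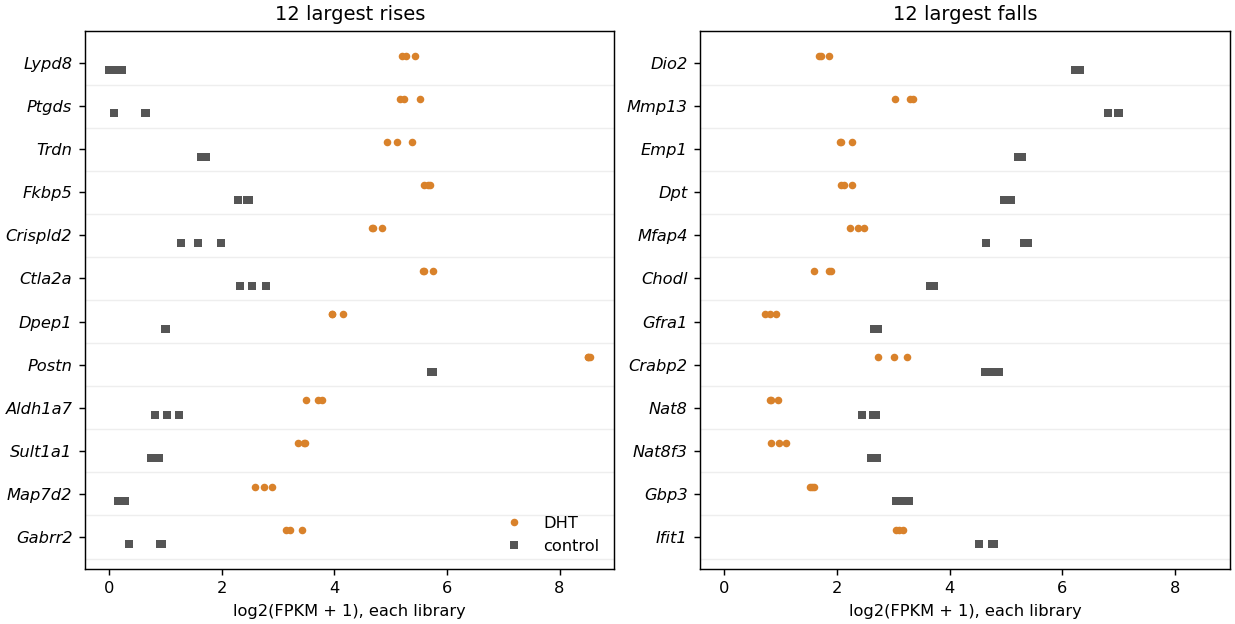
log2(FPKM + 1) in each library (x axis) for the 12 largest rises (left) and 12 largest falls (right), with DHT libraries as orange circles and control libraries as grey squares. The 24 genes were chosen among those whose groups do not overlap, and Postn is the most abundant, at 362 to 373 FPKM with DHT.

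The list of the androgen receptor and its coregulators had 21 tested genes. Of these 4 rose (12.7% of all genes did), 1 fell (14.1%) and 16 missed the threshold. Thus 23.8% changed, beside 26.9% of all genes, and the median was -0.0481. Pias1, a SUMO ligase that binds the receptor, rose by 0.75 ± 0.0675, Fhl2, a LIM domain coactivator, by 0.52 ± 0.0471, and Nrip1, a corepressor, by 0.41 ± 0.0742. Srd5a1, the reductase that makes DHT from testosterone, had 0.59, 1.2 and 0.771 FPKM in DHT libraries, against 0.886, 1.05 and 1.15 FPKM in control libraries, and the groups overlapped. Among the other steroid receptors, the glucocorticoid receptor gene Nr3c1 fell, with 18.4 ± 0.892 FPKM with DHT against 23.8 ± 0.728 FPKM in control (SD, n = 3 each) and a difference of -0.36 ± 0.0513, and the oestrogen receptor gene Esr1 had a difference of -0.63 ± 0.0723 at a level of 0.85 to 0.983 FPKM with DHT and 1.89 to 2.07 FPKM in control.

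Of 17 tested genes in a list of steroid receptor chaperones, 2 rose, 3 fell and 12 missed the threshold, so 29.4% changed beside 26.9% of all genes. The rises were Fkbp5, a co-chaperone, and Tsc22d3, which the list also holds but which encodes the leucine zipper protein GILZ, no chaperone. Tsc22d3 had 14, 16.5 and 13.5 FPKM in DHT libraries, against 6.73, 6.66 and 7.4 FPKM in control libraries. The falls were small, -0.34 ± 0.0549 for the inducible HSP90 gene Hsp90aa1, -0.2 ± 0.0377 for its co-chaperone p23 (Ptges3) and -0.17 for Stip1. Without control replicate 2 the list had 7 falls, and with all 12 libraries in the fit 5. The paralog Fkbp4, which also binds steroid receptors, differed by -0.13 ± 0.0544 (limma adjusted p = 0.123).

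The 82 tested members of an androgen response list, compiled mainly from prostate, moved both ways. Of them 21 rose, 20 fell and 41 missed the threshold, with a median of -0.00052 against -0.00591 over all genes. In all 41 of 82 changed, beside 26.9% over all genes. After Fkbp5 the most certain members were Ndrg1, a stress-regulated growth suppressor, with 38.1, 37.9 and 38.5 FPKM in DHT libraries, against 19.7, 19.2 and 19 FPKM in control libraries, and Selenop, the plasma selenium carrier, with 309, 336 and 309 FPKM in DHT libraries, against 152, 148 and 156 FPKM in control libraries. Both were higher in every DHT library, with narrow groups. Mertk, a receptor for the uptake of dying cells, differed by 1.26 ± 0.0709. The kallikrein gene Klk1b21, one of a family of near-identical genes, had 2.12, 3 and 1.84 FPKM in DHT libraries and is listed at 0 in all 3 control libraries. Among the falls were Sat1, which breaks down polyamines, at -0.82 ± 0.0751, Steap4, a metalloreductase, at -0.71 ± 0.104, and genes of sterol and fatty acid synthesis, among them Insig1, Idi1 and Scd1, at -0.59, -0.59 and -0.51.

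Genes known from the glucocorticoid response were mostly higher. Of 23 tested members 20 rose (12.7% of all genes did), 2 fell and 1 missed the threshold, with a median of 0.77. Under every alternative run the count of rises stayed within 1.5 times of 20. Fkbp5 and Sult1a1, described above, and Lcn2, Mt2, Tsc22d3, Cdkn1a, Cebpd and Per1 are among the members on more than 1 of the lists used. Glul, glutamine synthetase, had 18.2, 17.1 and 18.9 FPKM in DHT libraries, against 5.09, 4.88 and 5.37 FPKM in control libraries, and Mt2, a metal-binding metallothionein, had 163, 156 and 156 FPKM in DHT libraries, against 60.6, 59.5 and 65.9 FPKM in control libraries. Both groups were narrow and well apart. Fam107a, an actin-binding protein induced by stress hormones, differed by 2.18 ± 0.0875, Cebpd, a transcription factor of early fat cell formation, by 1.13 ± 0.0499, and the clock gene Per1 by 0.73 ± 0.0647. The members that fell were Klf9, at -0.22 ± 0.0565, and Cdkn1a, the cell cycle inhibitor p21, at -0.38 ± 0.0554. The regular medium has no added glucocorticoid as far as the labels say, and the steroid content of its serum was not measured.

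The androgen and glucocorticoid receptors bind the same spaced palindrome, so the 250 bases before each gene's RefSeq start were searched in GRCm38.p6 for GNACANNNTGTNC. The motif reads alike on both strands, and AGAACA, a single arm of it, may overlap it. Of 358 genes that rose at least 1.5-fold 252 have such a sequence, of 323 that fell 236 do, and of all 10820 tested 8427 do. The palindrome was found in 8 of the 252 (3.17%), in 1 of the 236 (0.424%), in 27 of the 8427 (0.32%) and in 119 of all 27025 genes with a sequence (0.44%). The single arm, AGAACA or its other strand TGTTCT, was found in 42 of the 252 (16.7%), in 27 of the 236 (11.4%), in 1039 of the 8427 (12.3%) and in 4912 of the 27025 (18.2%). A match is a description of the letters and not a binding site. The 8 risen genes and the 1 fallen gene with the palindrome are shown because they can be set side by side, and were chosen after their values were seen. Each sequence, from RefSeq, holds 20 bases on either side, runs 5′ to 3′ on the gene's strand, and has the palindrome in capitals.
Cpxm1 (chr2:130397818-130397870, minus strand): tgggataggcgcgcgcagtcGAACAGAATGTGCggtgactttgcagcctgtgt
Txnip (chr3:96557765-96557817, plus strand): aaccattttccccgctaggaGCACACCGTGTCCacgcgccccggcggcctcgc
Amy1 (chr3:113577934-113577986, minus strand): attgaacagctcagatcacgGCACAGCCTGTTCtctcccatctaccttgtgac
Map3k6 (chr4:133240617-133240669, plus strand): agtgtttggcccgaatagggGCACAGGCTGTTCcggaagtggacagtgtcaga
Mt1 (chr8:94178975-94179027, plus strand): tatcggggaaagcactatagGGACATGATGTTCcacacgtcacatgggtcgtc
Suox (chr10:128673932-128673984, minus strand): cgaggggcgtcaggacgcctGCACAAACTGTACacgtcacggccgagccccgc
Serpina3n (chr12:104406610-104406662, plus strand): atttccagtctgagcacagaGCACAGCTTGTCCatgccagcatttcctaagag
Fam107a (chr14:8309865-8309917, minus strand): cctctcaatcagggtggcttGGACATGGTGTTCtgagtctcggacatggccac
Psme2b (chr11:48946596-48946648, minus strand): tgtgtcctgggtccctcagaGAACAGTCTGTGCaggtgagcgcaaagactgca

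Among these 9 genes the differences were 2.18 ± 0.0875 for Fam107a, 2.11 ± 0.168 for the serine protease inhibitor Serpina3n, 1.33 ± 0.0745 for sulfite oxidase (Suox), 1.2 ± 0.113 for the thioredoxin inhibitor Txnip, 1.06 ± 0.0771 for the kinase Map3k6, 0.77 ± 0.106 for the metallothionein Mt1, 0.62 ± 0.0705 for the carboxypeptidase-like Cpxm1 and 0.61 ± 0.0788 for the amylase Amy1. The motif lies closest to the start in Suox, at -46 to -34, and in Serpina3n, at -78 to -66, and farthest in Cpxm1, at -221 to -209. Psme2b, the gene that fell, differed by -1.36 ± 0.153 and closely resembles Psme2, so reads may be shared. The most strongly risen gene, Lypd8, has 2 single arms before 1 of its RefSeq starts and no palindrome, and Fkbp5, Postn, Ptgds, Dio2 and Mmp13 have neither in the window searched.

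Interferon response genes, the antiviral defence programme, were lower with DHT. Of 34 tested members 31 fell (14.1% of all genes did), 0 rose and 3 missed the threshold, with a median of -0.71. At 1.5-fold or more 20 fell, where 2.99% of all genes did. The 5 macrophage and blood markers, cells that respond strongly to interferon, summed to 12.6 to 16.4 FPKM with DHT and 16.5 to 18.5 FPKM in control, and their part in the result was not tested. Summed over the members in the table, the list had 501 to 520 FPKM in DHT libraries and 757 to 818 FPKM in control libraries. Bst2, tetherin, which holds budding viruses at the cell surface, had 17.3, 19.9 and 16.5 FPKM in DHT libraries, against 43.8, 49.95 and 45.9 FPKM in control libraries. Isg15, the interferon-induced ubiquitin-like modifier, had 9.26, 10.8 and 11.5 FPKM in DHT libraries, against 24.2, 22.9 and 20.8 FPKM in control libraries, and Rtp4, an interferon-induced chaperone of receptors, had 3.67, 3.59 and 3.7 FPKM in DHT libraries, against 8.49, 9.25 and 8.97 FPKM in control libraries. In all 3 genes the highest DHT library lay well below the lowest control library. Transcription factors of the pathway also fell, with differences of -0.47 ± 0.12 for Irf7 and -0.56 ± 0.0619 for Irf9, and Irf1 had -0.35 (limma adjusted p = 0.138).

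Genes of antigen presentation by MHC class I, which interferon also induces, were mixed. Of 17 tested members 1 rose, 7 fell and 9 missed the threshold, so 47.1% changed beside 26.9% of all genes. The median was -0.0693. H2-D1 and the proteasome activator Psme1 fell, with differences of -0.32 ± 0.0646 and -0.33 ± 0.0487, while H2-T23 rose by 0.27 ± 0.0636. The class I genes share sequence, so their reads may be divided, and the 7 falls became 3 or 4 without DHT replicate 1 or 2 or control replicate 1 or 3. Among 22 tested cytokine and chemokine genes 4 rose and 8 fell, so 54.5% changed beside 26.9% of all genes. Cxcl5, which attracts neutrophils, had 0.058, 0.108 and 0.165 FPKM in DHT libraries, against 2.65, 1.32 and 2.24 FPKM in control libraries, and the interleukin 1 antagonist gene Il1rn differed by -0.7 ± 0.0928. The NF-kB inhibitor gene Nfkbia rose by 0.61 ± 0.046, and Ptgs2, the inducible cyclooxygenase, fell by 0.73 ± 0.10.

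Complement and acute-phase genes divided. Of 22 tested members 11 rose (12.7% of all genes did), 5 fell (14.1%) and 6 missed the threshold, with a median of 0.45. C4b, a complement component, had 19.4, 20.1 and 20.01 FPKM in DHT libraries, against 3.37, 4.4 and 3.85 FPKM in control libraries. Lcn2, lipocalin 2, had 4.11, 3.19 and 3.64 FPKM in DHT libraries, against 0.216, 0.0918 and 0.182 FPKM in control libraries, and Orm3, an orosomucoid with near-identical copies, had 3.51, 3.28 and 3.63 FPKM in DHT libraries, against 0.15, 0 and 0 FPKM in control libraries. These genes were low or near 0 in control and higher in all 3 DHT libraries. Hp, haptoglobin, and Cp, ceruloplasmin, rose by 1.12 ± 0.0701 and 0.95 ± 0.0712. On the other side were the complement protease gene Masp1 at -1.23 ± 0.0566, clusterin (Clu) at -1.09 ± 0.0557 and C3 at -0.49 ± 0.0588. With the filter set at 5 FPKM, 4 members rose.

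**Figure D3:**
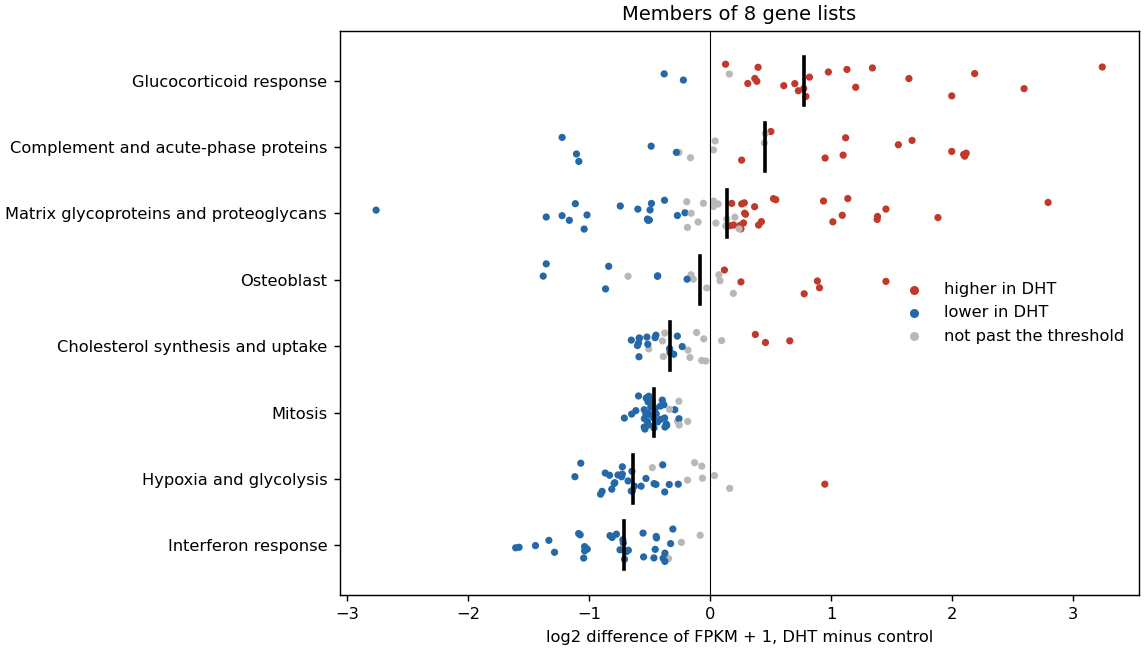
log2 difference, DHT minus control (x axis), of each tested member of 8 gene lists (rows), with genes that rose in red, genes that fell in blue and others in grey, and a black bar at the median. The glucocorticoid response list lies mostly to the right of 0, the mitosis, hypoxia and glycolysis and interferon lists mostly to the left, and the complement, matrix and osteoblast lists spread to both sides.

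Cell cycle genes were lower by small, even steps. Of 45 tested mitosis genes 40 fell (14.1% of all genes did), 0 rose and 5 missed the threshold. The median was -0.47 and the range -0.71 to -0.19. Top2a, which untangles chromosomes, had 25, 25.1 and 23.6 FPKM in DHT libraries, against 37, 37 and 35 FPKM in control libraries. Cks2, a subunit of cyclin-dependent kinases, had 45.9, 46 and 42.3 FPKM in DHT libraries, against 75.8, 68.2 and 68.5 FPKM in control libraries, and the proliferation marker Mki67 had 41.5, 42.3 and 41.3 FPKM in DHT libraries, against 62, 59.3 and 51.1 FPKM in control libraries. The groups were apart in each of the 3 genes, and the gap was modest. Among DNA replication genes 25 of 46 tested members fell (14.1% of all genes did), 0 rose and 21 missed the threshold. The median was -0.29. Uhrf1, which copies DNA methylation, and Mcm4, a replicative helicase subunit, fell, with differences of -0.49 ± 0.054 and -0.41 ± 0.0458. Of 26 tested cyclins and inhibitors of G1, 5 rose (2 or 3 without any 1 library), 7 fell and 14 missed the threshold. That is 46.2% changed, beside 26.9% of all genes. Gadd45a, a damage-response gene, had 16.4, 17.4 and 16.9 FPKM in DHT libraries, against 56.2, 48.8 and 36.6 FPKM in control libraries, and its relative Gadd45g rose by 0.8 ± 0.0857. Cyclin D1 (Ccnd1) had -0.0861 (limma adjusted p = 0.143).

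Glycolysis and hypoxia-induced genes formed another lower group. Of 34 tested members 26 fell (14.1% of all genes did), 1 rose and 7 missed the threshold, with a median of -0.64. At 1.5-fold or more 18 fell, where 2.99% of all genes did. Ldha, lactate dehydrogenase, had 62.7, 63.9 and 64.5 FPKM in DHT libraries, against 120.4, 116 and 121 FPKM in control libraries, and Pgk1, a phosphoglycerate kinase, had 71.6, 74.5 and 76.6 FPKM in DHT libraries, against 132, 134 and 134 FPKM in control libraries. Ero1l, an oxidase of the endoplasmic reticulum induced by hypoxia, had 13.1, 12.2 and 13 FPKM in DHT libraries, against 29.7, 28 and 29 FPKM in control libraries. In all 3 genes the DHT libraries were close together and far below every control library. The glucose transporter Slc2a1, hexokinase 2 (Hk2), pyruvate dehydrogenase kinase (Pdk1) and the angiogenic factor Vegfa fell, with differences of -0.68, -0.87, -0.91 and -0.65. Ndrg1, which is also on the androgen list, was the member that rose. The prolyl hydroxylase gene Egln3 had 0.0335.

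Cholesterol synthesis and uptake was lower, with 16 of 30 tested members fallen (14.1% of all genes fell), 3 risen and 11 not past the threshold. The median was -0.33. Cyp51, a demethylase of sterol synthesis, had 18.4, 17.7 and 19 FPKM in DHT libraries, against 31.4, 28.1 and 29 FPKM in control libraries, and Insig1, the sterol sensor partner, had 21.5, 20.5 and 23.6 FPKM in DHT libraries, against 32.1, 33.1 and 35.3 FPKM in control libraries. The rises were Abca1, which exports cholesterol, at 0.66 ± 0.0565, Ebp at 0.46 ± 0.0643 and Npc1 at 0.37 ± 0.0577. Hmgcs1, an early enzyme of the pathway, had -0.0379 and did not pass. In fatty acid and triglyceride metabolism 5 of 39 tested members rose and 12 fell, so 43.6% changed beside 26.9% of all genes. The desaturase genes Fads2 and Fads3 and the droplet protein gene Plin2 fell, with differences of -0.6 ± 0.0581, -0.44 ± 0.0386 and -0.52 ± 0.0453, and the phosphatidate phosphatase gene Lpin1 rose by 0.58 ± 0.0878.

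Genes of the amino acid response and the tRNA synthetases had 5 rises (3 without DHT replicate 1 or 3 or control replicate 1 or 3), 21 falls and 17 not past the threshold among 43 tested members, with a median of -0.19. That is 60.5% changed, beside 26.9% of all genes. Nars, the asparagine tRNA synthetase, and Cth, which makes cysteine, fell, with differences of -0.44 ± 0.0324 and -1.0 ± 0.134, while Stc2 and Ddit4, which are induced by stress, rose by 1.19 ± 0.0779 and 0.7 ± 0.0551. The unfolded protein response had 2 rises and 4 falls among 28 members, and 21.4% changed beside 26.9% of all genes. Antioxidant and metallothionein genes had 7 rises and 4 falls (7 without control replicate 2) among 38, so 28.9% changed beside 26.9% of all genes. Mt2 led the rises, and the quinone reductase Nqo1 differed by -0.62 ± 0.0841. None of the 13 mitochondrially encoded genes passed, with a median of 0.0639. With each library scaled to the same sum, or without DHT replicate 1, 3 of them rose. Of 49 nuclear respiratory chain genes 14 fell and 0 rose, and of 55 cytosolic ribosomal protein genes 20 fell and 0 rose, all by less than 0.4, where 14.1% of all genes fell. The ribosomal falls were 11 with libraries centred on their medians and 4 with no intensity trend. Both counts moved with single libraries, to 4 to 9 falls in the respiratory chain without DHT replicate 1, 2 or 3 or control replicate 1 or 3, and 4 to 7 ribosomal falls without DHT replicate 1 or 2 or control replicate 1 or 3, against 31 without control replicate 2.

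Genes of the extracellular matrix changed in both directions. Of 55 tested matrix glycoproteins and proteoglycans 24 rose, 17 fell and 14 missed the threshold, 74.5% beside 26.9% of all genes. After Postn, the small leucine-rich proteoglycans Prelp, Omd, Aspn and Ogn were higher. Prelp had 226, 209 and 222 FPKM in DHT libraries, against 82.6, 81.8 and 85.8 FPKM in control libraries, and Omd, osteomodulin, had 50.3, 55.8 and 54.8 FPKM in DHT libraries, against 20.4, 19.5 and 17.2 FPKM in control libraries. Aspn and Ogn differed by 1.38 ± 0.0661 and 1.14 ± 0.0573. Other members of the same protein family were lower, Fmod (fibromodulin) at -1.17 ± 0.0853, Lum (lumican) at -1.02 ± 0.0634 and Dcn (decorin) at -0.51 ± 0.0368. Thrombospondins also divided, with Thbs1 at 1.01 ± 0.0763 and Thbs2 at -1.23 ± 0.0447. Sparcl1 rose by 1.88 ± 0.088 and Ctgf, a matricellular growth factor, by 1.09 ± 0.0519. Tnc, tenascin C, fell by 1.12 ± 0.0719. Fibronectin (Fn1) had -0.1 (limma adjusted p = 0.0872).

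Of 35 tested collagens and collagen-processing genes 14 rose, 9 fell and 12 missed the threshold, so 65.7% changed beside 26.9% of all genes. The basement membrane chains Col4a1 and Col4a2 rose together. Col4a1 had 219, 224 and 214 FPKM in DHT libraries, against 97.2, 94.5 and 92.8 FPKM in control libraries, and Col4a2 had 192, 191 and 182 FPKM in DHT libraries, against 98.1, 95.9 and 99 FPKM in control libraries. Col12a1, a collagen that sits on fibrils, had 92.3, 85.7 and 82.3 FPKM in DHT libraries, against 24, 27.7 and 25.5 FPKM in control libraries. All 3 were higher in every DHT library, Col12a1 by the most. Col8a1 was the strongest fall, at -1.07 ± 0.0498, and the prolyl hydroxylases P4ha1, P4ha2 and P4ha3 fell, with differences of -0.27, -0.57 and -0.68. The abundant fibril chains moved little, Col1a2 by 0.12 ± 0.0311, Col3a1 by -0.14 ± 0.0322 and Col1a1 by 0.0793 (limma adjusted p = 0.12). Among 38 proteases and inhibitors 12 rose and 11 fell, so 60.5% changed beside 26.9% of all genes. The stromelysin gene Mmp3 fell by 1.59 ± 0.144 beside Mmp13, while the gelatinase gene Mmp2 rose by 0.38 ± 0.0313. Serpine2, an inhibitor of serine proteases such as thrombin, had 6.7, 7.6 and 6.36 FPKM in DHT libraries, against 1.65, 1.53 and 1.56 FPKM in control libraries. It was higher in every DHT library, by 1.61 ± 0.0785.

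**Figure D4:**
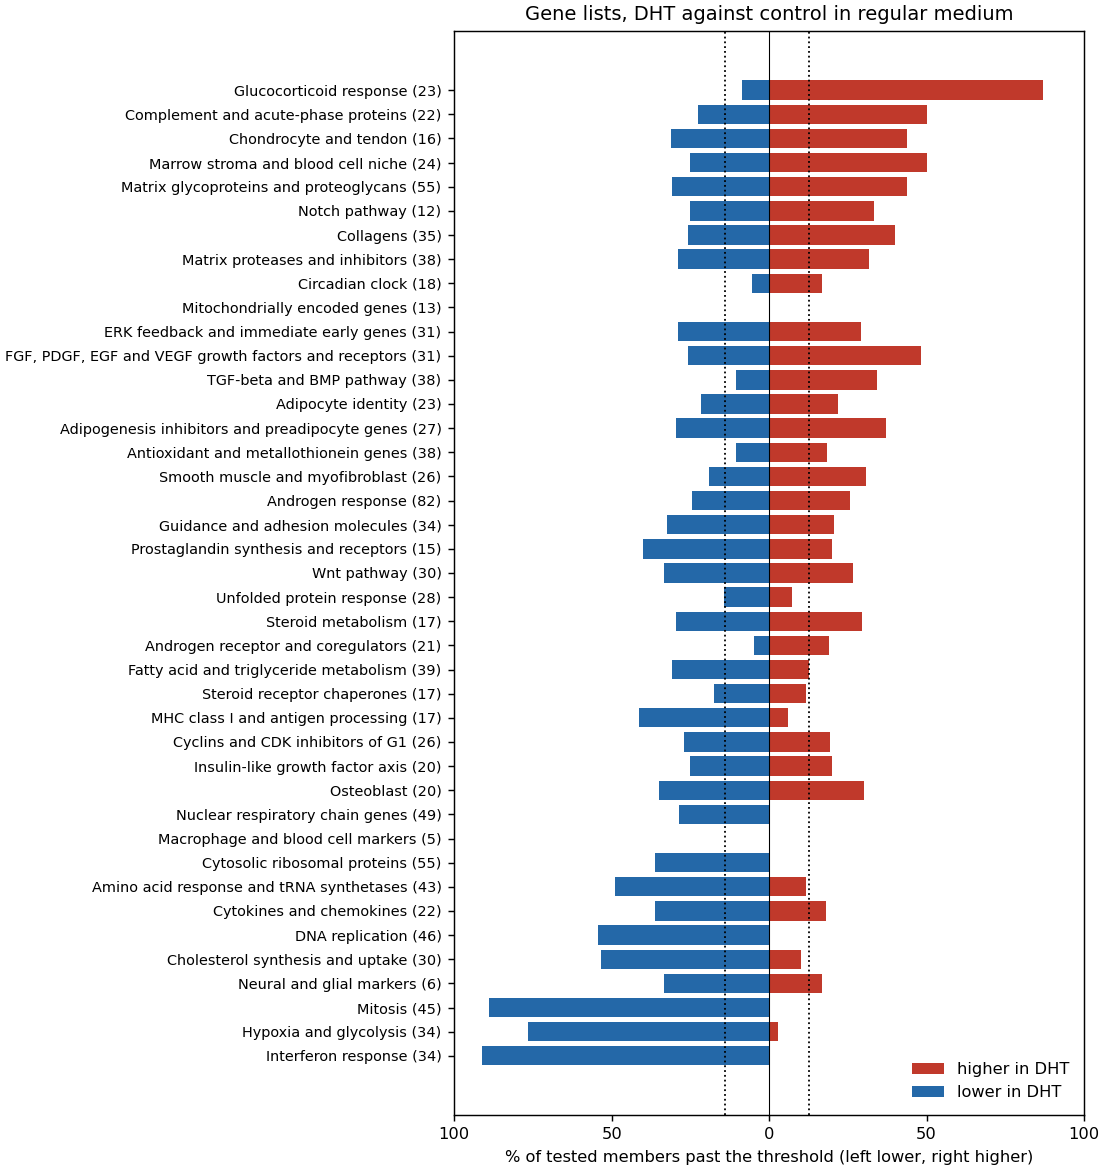
Share of the tested members of each of 41 gene lists with at least 5 tested members (number in brackets) that rose with DHT (red, right) or fell (blue, left), ordered by the list's median difference. Dotted lines mark the shares over all genes tested, 12.7% higher and 14.1% lower, and the glucocorticoid response and interferon lists lie near the ends.

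The genes of fat cells gave no shared direction in regular medium. Of 23 tested adipocyte identity genes 5 rose, 5 fell (3 with the filter set at 5 FPKM) and 13 missed the threshold, with a median of 0.0487. That is 43.5% changed, beside 26.9% of all genes. Among the rises were Sult1a1 at 2.59 ± 0.0746, Cebpd at 1.13 ± 0.0499 and Orm1, near 0 in control, at 1.67 ± 0.0889. Pparg (ENSMUSG00000000440.12, chromosome 6, 115360951 to 115490399), the master regulator of fat cell formation, had 5.74, 5.2 and 6.21 FPKM in DHT libraries, against 8.98, 7.55 and 8.32 FPKM in control libraries, and fell by 0.47 ± 0.0845 (limma adjusted p = 0.00671). Cebpa, its partner, had 13.7, 14.4 and 14.7 FPKM in DHT libraries, against 8.62, 22.7 and 23 FPKM in control libraries. Control replicate 1 stood apart from its fellows, the groups overlapped and the difference was -0.21 ± 0.329 (limma adjusted p = 0.686). Without that library it was -0.64 (adjusted p = 0.000777). Lpl, lipoprotein lipase, had 0.601, 0.63 and 0.533 FPKM in DHT libraries, against 2.88, 2.58 and 2.52 FPKM in control libraries, and Fabp4, a fatty acid carrier, had 3.06, 2.89 and 2.59 FPKM in DHT libraries, against 2.78, 3.07 and 2.97 FPKM in control libraries. Lpl was lower in every DHT library, and Fabp4 overlapped. Adipoq was not analysed here. Inhibitors of fat cell formation and preadipocyte genes had 10 rises and 8 falls (5 with that filter) among 27, 66.7% beside 26.9% of all genes. Tcf7l1, a repressor in the Wnt pathway, differed by 0.64 ± 0.0484 and the progenitor marker Pdgfra by 0.51 ± 0.0496. Id3 differed by -0.8 ± 0.0708 and Ly6a (Sca-1) by -1.22 ± 0.26.

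Bone genes also moved both ways, with 6 rises, 7 falls and 7 not past the threshold among 20 tested. That is 65.0% changed, beside 26.9% of all genes. Spp1, osteopontin, had 290.1, 306 and 283 FPKM in DHT libraries, against 782, 716 and 757 FPKM in control libraries. The DHT libraries were all far lower, and the difference was -1.36 ± 0.0454. Bglap, osteocalcin, which shares sequence with Bglap2, had 1.58, 2.47 and 1.58 FPKM in DHT libraries, against 4.93, 3.28 and 4.5 FPKM in control libraries. Alpl, alkaline phosphatase, had 1.35, 1.32 and 1.04 FPKM in DHT libraries, against 0.133, 0.207 and 0.296 FPKM in control libraries. Alpl was close to 0 in control and rose by 0.88 ± 0.0947, while Bglap fell by 0.87 ± 0.162. The transcription factor gene Dlx5 rose by 0.9 ± 0.0592, Fgfr2 by 0.78 ± 0.0507, and Runx2, the master regulator of osteoblasts, had -0.14 (limma adjusted p = 0.27) with overlapping groups. Phex, a peptidase of phosphate control, fell by 1.38 ± 0.104. Tnfrsf11b, osteoprotegerin, the decoy receptor that restrains osteoclasts, had 8.27, 7.26 and 8.22 FPKM in DHT libraries, against 16.1, 13.7 and 15.1 FPKM in control libraries. It was lower in every DHT library. Of 16 tested cartilage and tendon genes 7 rose and 5 fell (3 without DHT replicate 3 or control replicate 1). That is 75.0% changed, beside 26.9% of all genes. Col11a1 differed by 0.57 ± 0.0339 and Matn4 by -1.5 ± 0.0897.

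Of 24 tested marrow stroma and niche genes 12 rose, 6 fell (2 with the filter set at 5 FPKM) and 6 missed the threshold. That is 75.0% changed, beside 26.9% of all genes. Cxcl12, the chemokine that holds blood stem cells in the marrow, had 86.3, 75.5 and 73.5 FPKM in DHT libraries, against 58.6, 52.3 and 52.7 FPKM in control libraries. Its DHT libraries were all higher, by 0.52 ± 0.0724. Kitl, stem cell factor, had 30.05, 30.3 and 29.7 FPKM in DHT libraries, against 26, 27.7 and 26.5 FPKM in control libraries, a difference of 0.16 ± 0.0411 (limma adjusted p = 0.026) that no longer passed without DHT replicate 1, 2 or 3 or control replicate 1 or 3 (adjusted p 0.0599 to 0.0873). The niche transcription factor genes Ebf3 and Foxc1 rose by 0.7 ± 0.0981 and 0.41 ± 0.0696. Esm1, a secreted proteoglycan, and the IGF-binding protein gene Igfbp4 fell, with differences of -1.67 ± 0.0711 and -1.02 ± 0.0401. Smooth muscle and myofibroblast genes had 8 rises and 5 falls among 26, with 13 not past the threshold, beside 26.9% of all genes changed. Myh11, the smooth muscle myosin heavy chain, rose by 0.81 ± 0.0777 and the integrin gene Itga5 by 0.52 ± 0.0402, Tagln fell by 0.32 ± 0.0384, and the actin gene Acta2 had -0.0421 and did not pass. Of the markers of other cell types, Tnnt3 and Mylpf of skeletal muscle and Erg of endothelium fell, with differences of -0.96 ± 0.0981, -0.68 ± 0.14 and -0.98 ± 0.101, and Erg is listed at 0 in 2 DHT libraries. S100b rose by 1.0 ± 0.0736, and none of the 5 macrophage and blood genes passed.

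Growth factor axes changed at several points. Igf1 (ENSMUSG00000020053.18, chromosome 10, 87858265 to 87937042), insulin-like growth factor 1, had 88.5, 92.6 and 89.6 FPKM in DHT libraries, against 166, 175 and 159.9 FPKM in control libraries. All DHT libraries were far lower than the control libraries, a difference of -0.88 ± 0.0423. Its binding proteins divided, with Igfbp7 higher by 0.83 ± 0.0384 and Igfbp2 by 0.81 ± 0.081, and Igfbp4 and Igfbp5 lower. In all, 4 of 20 tested genes of the axis rose (12.7% of all genes did), 5 fell (14.1%) and 11 missed the threshold. Among 31 growth factor and receptor genes 15 rose and 8 fell (5 with the filter set at 5 FPKM). That is 74.2% changed, beside 26.9% of all genes. Egfr, the EGF receptor, had 35.1, 32.3 and 33.3 FPKM in DHT libraries, against 12.7, 14.2 and 13.4 FPKM in control libraries. Hgf, hepatocyte growth factor, had 0.655, 0.444 and 0.86 FPKM in DHT libraries, against 4.61, 4.98 and 3.96 FPKM in control libraries, close to 0 with DHT. Fgf10 and Fgf18 rose by 1.13 ± 0.0838 and 1.13 ± 0.126, and Nrp2, a VEGF and semaphorin receptor, fell by 0.89 ± 0.049.

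Of 38 tested genes of the TGF-beta and BMP pathway 13 rose (12.7% of all genes did), 4 fell (14.1%) and 21 missed the threshold. Fst, follistatin, which binds activin, had 33.5, 41 and 43.4 FPKM in DHT libraries, against 6.96, 9.3 and 6.33 FPKM in control libraries. It was several times higher in every DHT library, by 2.25 ± 0.143. Inhba, an activin subunit, rose by 0.77 ± 0.066, and the receptors divided, with Tgfbr1 at 0.53 ± 0.0608 and Tgfbr2 at -0.53 ± 0.0426. Among the inhibitors of DNA binding that BMPs induce, Id4 and Id2 rose by 1.26 ± 0.0721 and 0.25 ± 0.0681, Id3 fell and Id1 had -0.22 (limma adjusted p = 0.141).

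In the Wnt pathway 8 of 30 tested members rose, 10 fell and 12 missed the threshold, so 60.0% changed beside 26.9% of all genes. Rspo2 and Rspo3, R-spondins that amplify Wnt signals from outside the cell, were lower. Rspo2 had 36.1, 34.1 and 37.2 FPKM in DHT libraries, against 90.7, 91.7 and 92.8 FPKM in control libraries, and Rspo3 had 42.6, 40.4 and 45.8 FPKM in DHT libraries, against 100.3, 102 and 102 FPKM in control libraries. Both were lower in every DHT library, with tight groups. Wnt5b fell by 0.88 ± 0.0909, while the receptor genes Ror1 and Lrp5 rose by 0.98 ± 0.0799 and 0.65 ± 0.0876. Of 12 Notch pathway genes 4 rose and 3 fell, so 58.3% changed beside 26.9% of all genes. The receptor Notch2 and the target Hes1 were higher by 0.48 ± 0.0417 and 0.6 ± 0.102. The transcription factor Rbpj differed by -0.64 ± 0.0573. Immediate early genes and ERK feedback had 9 rises and 9 falls among 31, so 58.1% changed beside 26.9% of all genes. Jun differed by 0.51 ± 0.0425 and Fosl1 by -0.63 ± 0.0658. Guidance and adhesion genes had 7 rises and 11 falls among 34, so 52.9% changed beside 26.9% of all genes. The falls were 6 or 7 without DHT replicate 2 or 3 or control replicate 2 or 3. With the filter set at 5 FPKM or with each library scaled to the same sum they were also 6 or 7. The semaphorins Sema3c and Sema3e differed by -1.04 ± 0.0577 and -1.05 ± 0.0592.

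Enzymes for steroids and prostaglandins changed gene by gene. Of 17 steroid metabolism genes 5 rose (3 without DHT replicate 1 or 2 or any control library, or with the filter set at 5 FPKM) and 5 fell (3 with that filter). That is 58.8% changed, beside 26.9% of all genes. Cyp1b1, a hydroxylase of oestrogens, had 87.9, 86 and 83.4 FPKM in DHT libraries, against 55.6, 56 and 53.9 FPKM in control libraries. Akr1c14, a hydroxysteroid dehydrogenase with near-identical relatives, had 2.75, 3.28 and 2.45 FPKM in DHT libraries, against 6.69, 8.39 and 7.99 FPKM in control libraries, and Hsd11b1, which regenerates active glucocorticoid, fell by 0.49 ± 0.0909. Ugt1a1, a glucuronosyltransferase whose locus shares exons among its members, had 1.76, 4.74 and 2.42 FPKM in DHT libraries, against 0, 0.0994 and 0 FPKM in control libraries, with DHT replicate 2 the highest. Of 15 prostaglandin genes 3 rose and 6 fell, so 60.0% changed beside 26.9% of all genes. Beside Ptgds the prostacyclin synthase gene Ptgis rose by 1.0 ± 0.0981 and Ptges by 0.62 ± 0.118, and the receptor gene Ptgfr fell by 0.67 ± 0.0499. Of 18 clock genes 3 rose and 1 fell, so 22.2% changed beside 26.9% of all genes, with Bhlhe41 and its relative Bhlhe40 at 0.56 ± 0.0616 and -0.52 ± 0.0673.

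Cells in adipogenic medium received the same dose of DHT, and the libraries of the 2 comparisons are separate. ADM+DHT against ADM changed 3628 of 10823 genes (33.5%), 1860 higher (17.2%) and 1768 lower (16.3%). With each library scaled to the same sum the counts were 2565 and 1424. That scaling also changes the weight of the added 1, so these counts do not show library size alone. At 1.5-fold or more 412 (3.81%) were higher and 595 (5.5%) lower. Of genes tested in both media, 350 were at least 1.5-fold higher with DHT in regular medium and 378 in adipogenic medium. The 154 genes higher in both are 44.0% of the regular list and 40.7% of the adipogenic list. For falls, 59 genes were lower in both, 24.1% of 245 in regular medium and 12.5% of 471 in adipogenic medium. The 245 are out of 323 falls in regular medium, and the 350 out of 358 rises. The others had no test in adipogenic medium, so the shares for falls and rises are not like for like. Whether the effect of DHT differed between the media was tested as an interaction over all 12 libraries, the difference in adipogenic medium less that in regular medium, and it passed for 2835 of 11152 genes (25.4%), 1393 with a positive value (12.5%) and 1442 with a negative value (12.9%).

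Ptgds differed about as much in both media, by 4.40 with ADM+DHT over ADM, and its interaction was -0.45 (limma adjusted p = 0.257). Fkbp5 and Tsc22d3, both known glucocorticoid targets, stood at high levels in adipogenic medium, which holds dexamethasone, insulin and rosiglitazone. These agents were given together, and the part of each in these levels was not tested. Fkbp5 averaged 183 ± 3.8 FPKM in ADM+DHT and 117 ± 1.91 FPKM in ADM, a difference of 0.64 against 3.24 in regular medium (limma adjusted p of the interaction 1.01e-09). Tsc22d3 averaged 95.3 ± 7.47 FPKM in ADM+DHT and 102.7 ± 4.36 FPKM in ADM, a difference of -0.11 against 0.97 in regular medium (2.24e-05). Postn had a difference of 1.10 in adipogenic medium and 2.79 in regular medium. The falls of Dio2 and Mmp13 in regular medium had no counterpart of that size, and their interactions were 3.87 and 3.82 (limma adjusted p = 4.64e-10 and 7.98e-09). Dio2 averaged 0.189 ± 0.037 FPKM in ADM+DHT and 0.878 ± 0.088 FPKM in ADM, and Mmp13 13.8 ± 0.842 FPKM in ADM+DHT and 12.7 ± 1.33 FPKM in ADM (SD, n = 3 each). Dio2 was thus near 0 in adipogenic medium in both groups. The fat cell genes Ephx2, Gpd1 and Retn, which were lower with DHT in adipogenic medium, lay under 1 FPKM in all 6 libraries of regular medium, with differences of -0.0364, 0.0749 and -0.0718.

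At 1.5-fold or more, 8 genes were higher with DHT in regular medium and lower in adipogenic medium. They are Sult1a1, Orm1, Rgcc, Txnip, Sh2b2, Rnf125, Tmem176b and Sphk1. Rgcc, a cell cycle regulator, had 11.4 ± 0.296 FPKM with DHT and 3.1 ± 0.696 FPKM in control, against 62.9 FPKM in ADM+DHT and 104.1 FPKM in ADM on average. Another 17 genes were lower in regular medium and higher in adipogenic medium, among them Tgtp2 and Irgm1, GTPases of the interferon response, Cyp2f2, a cytochrome P450, and Sema3c. Tgtp2 differed by -1.32 in regular medium and 1.04 in adipogenic medium, and Cyp2f2 by -1.27 and 1.43.

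**Figure D5:**
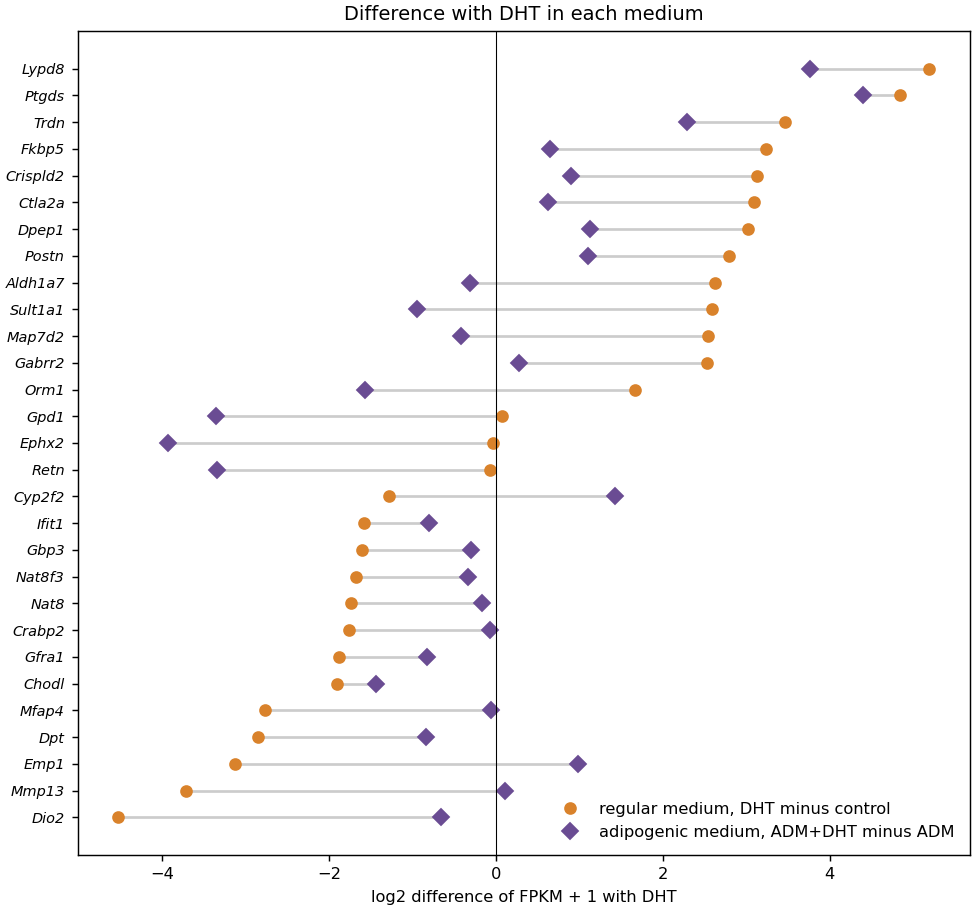
log2 difference with DHT (x axis) for 29 genes, in regular medium (orange circles, DHT minus control) and in adipogenic medium (purple diamonds, ADM+DHT minus ADM). Ptgds and Lypd8 lie far to the right in both media, while Dio2 and Mmp13 lie at -4.53 and -3.71 in regular medium and at -0.66 and 0.11 in adipogenic medium.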

How the data were processed

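Poly(A) RNA was made into strand-specific paired-end libraries and sequenced for 150 cycles on an Illumina HiSeq instrument, per the labels' protocols. Tools listed in the submitters' processing notes, without versions, are HISAT2, StringTie, cutadapt and FastQC; the genome build is GRCm38. Per the file headers, the authors deposited FPKM per library, a log2 fold change between group means of log2(FPKM + 1), and a p-value and q-value whose test is not given in the sources used here. The table has 1 empty line, which was skipped. No read counts are given, so depth is unknown and precision rests on 3 replicates a group. A library's FPKM did not differ between tables.

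From the FPKM, log2(FPKM + 1) was computed and tested two-sided by limma (version 3.58.1, R version 4.3.3, intensity trend) on the 6 libraries of a pair (4 residual degrees of freedom) or all 12 for the interaction (8). Genes needed a group mean of at least 1 FPKM. The script was tested on simulated data. Figures used Python 3.11.15 and matplotlib 3.10.9.

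The comparison, the 45 gene lists and the gene names were chosen with earlier results of these data known. Lists, matched by symbol, are described by counts and medians, with no set test. The genes named are the 12 largest rises and 12 largest falls among changed genes with no overlap between libraries and at least 5 FPKM in the higher group, up to 4 changed members per list with the smallest adjusted p and the most certain member of the opposite direction, 22 names given in every case, and the 5 largest interactions of each sign. Other list members are named for contrast, chosen after their values were seen. Zbtb16, Cyp19a1 and Tnfsf11 were not analysed here, and results on some genes are not reported here. Alternatives were another pseudocount (0.1), no filter and a filter of 5 FPKM, 2 scalings, no intensity trend, a fit on all 12 libraries, a replicate block and leaving out each library.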

Additional observations from a re-analysis of the deposited data

Results flagged for a closer look

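In 37 of 44 genes with a test, out of those with the largest differences, those named in every case and the 10 with the largest interactions, the difference made by DHT in adipogenic medium differed from that in regular medium by the interaction test of limma (adjusted p 1.45e-10 to 0.0419 over 11152 genes). Most of the 44 were chosen for a large difference in regular medium or a large interaction, so this share follows from the choice. Each value is the difference in adipogenic medium minus that in regular medium on the log2(FPKM + 1) scale.

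Among the genes that rose with DHT in regular medium, the interaction was -1.43 for Lypd8, -1.18 for Trdn, -2.59 for Fkbp5, -2.23 for Crispld2, -2.47 for Ctla2a, -1.88 for Dpep1, -1.69 for Postn and -1.72 for Fst, all of which were also higher in ADM+DHT than in ADM on average. It was -2.25 for Gabrr2, -2.94 for Aldh1a7, -2.96 for Map7d2 and -1.08 for Tsc22d3, whose differences in adipogenic medium were 0.28, -0.31, -0.41 and -0.11. In ADM+DHT against ADM, Aldh1a7 and Map7d2 fell (limma adjusted p = 0.00175 and 0.000205), Gabrr2 rose (0.0226) and Tsc22d3 did not pass (0.227). The directions of Aldh1a7 and Map7d2 thus differed between the media. For Sult1a1 the interaction was -3.54 and for Orm1 -3.23. Sult1a1 averaged 85.1 ± 1.36 FPKM in ADM+DHT against 165 ± 3.38 FPKM in ADM, and 9.78 ± 0.514 FPKM with DHT against 0.788 ± 0.095 FPKM in control, so it stood in opposite directions in the 2 media.

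Among the genes that fell in regular medium, the interaction was 3.87 for Dio2, 3.82 for Mmp13, 2.71 for Mfap4, 2.01 for Dpt, 1.69 for Crabp2, 1.57 for Nat8, 1.34 for Nat8f3, 1.31 for Gbp3, 1.05 for Gfra1, 1.22 for Igf1 and 1.00 for Tnfrsf11b. Dio2, Mfap4, Crabp2 and Nat8 had no test of ADM+DHT against ADM, which needed a group mean of 1 FPKM. Mfap4 averaged 0.756 FPKM in ADM+DHT and 0.826 FPKM in ADM. At such levels a fall of the size in regular medium could not show. Cyp2f2, at 2.71, fell in regular medium and rose in adipogenic medium. Emp1 had 4.11, with ADM+DHT libraries at 13.4, 1.32 and 1.54 FPKM and ADM libraries at 1.57, 1.17 and 0.957 FPKM, and without the first of them 3.26 (adjusted p = 3.37e-07). Smaller values were 0.78 for Ifit1 and 0.46 for Chodl. Lpl, at -0.91, fell in both media and further in adipogenic medium.

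Genes with little or no difference in regular medium were Ephx2 at -3.90, Gpd1 at -3.43, Retn at -3.28, Fabp4 at -1.25, Cebpa at -2.10, Runx2 at 0.40 and Kitl at -0.49. The calls of Cebpa, Chodl and Ifit1 ended under 9 to 12 alternatives each, and that of Lpl with a pseudocount of 0.1 (-0.136, adjusted p = 0.342).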

How the results depend on the processing

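The count of 2907 changed genes lay between 2265 and 3202 under the other settings, and between 2095 and 2665 with 1 library left out. The count at 1.5-fold or more, 681, was 447 (235 higher, 212 lower) with the filter set at 5 FPKM, which tests fewer genes. It was 672 to 693 with 1 library left out and 679 with libraries centred on their medians. With each library scaled to the same sum it was 919 (515 higher, 404 lower), and with a pseudocount of 0.1 it was 962. The libraries summed to 240590 to 248216 FPKM and were scaled up to a far larger sum. Both settings thus made the added value smaller beside the FPKM. The count of 919 therefore cannot be read as an effect of library size alone. Of 177 named genes 166 kept their direction and their side of the threshold under every alternative. Among the 11 others were Kitl, Cebpa, Fabp4, Hsp90b1, Selenos, Rpl24, H2-T23, Psme2 and Cry2. Directions turned in genes that had not passed, Fabp4 without DHT replicate 3 (0.0128, range without 1 library -0.076 to 0.0128) and Cebpa without control replicate 2 or 3 (0.00611 and 0.0147, range -0.645 to 0.0147), and in the interaction of Chodl with a pseudocount of 0.1 (-0.0395). The cause was not tested. Deviations of same-numbered libraries correlated at -0.085, 0.145 and -0.098, and those of differently numbered libraries at -0.116 to 0.193. The numbers thus give no sign that libraries are paired, though 3 libraries a group cannot exclude it. With the replicate block 2542 genes changed, 1211 higher and 1331 lower. The difference in the mitochondrially encoded share, 0.577 percentage points, ranged from 0.416 to 0.835 without 1 library. FPKM carry no depth, so low genes have unknown counting error.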

Other observations

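The genes in these paragraphs were chosen after their values were seen, and are given as values. The Nat8 cluster on mouse chromosome 6, N-acetyltransferases with near-identical sequences, was lower across its measured members. Nat8f5 had 0.383, 0 and 0.183 FPKM in DHT libraries, against 3.16, 2.11 and 2.79 FPKM in control libraries, a difference of -1.64 ± 0.153 (limma adjusted p = 0.00032). Nat8f6 and Nat8f7 differed by -1.24 ± 0.0725 and -1.41 ± 0.137, beside Nat8 and Nat8f3. Reads may be divided among these genes, so the members are not independent.

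Agt, angiotensinogen, had 51.6, 55.9 and 53.7 FPKM in DHT libraries, against 8.27, 10.2 and 10.00 FPKM in control libraries, a difference of 2.39 ± 0.079 (limma adjusted p = 5.27e-06). Agtr2, the type 2 angiotensin receptor, had 1.53, 1.59 and 1.6 FPKM in DHT libraries, against 6.63, 6.57 and 6.48 FPKM in control libraries, a difference of -1.56 ± 0.0603. Agt was higher and Agtr2 lower in every DHT library, with tight groups. Kng2, a kininogen, fell by 1.67 ± 0.0711.

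Several secreted or signalling genes were near 0 in control. Calca, which encodes calcitonin and its related peptide, had 4.32, 5.11 and 4.31 FPKM in DHT libraries, against 0.104, 0.128 and 0.204 FPKM in control libraries. Ppp1r1b, a phosphatase inhibitor best known from dopamine-responsive neurons, had 4.36, 5.14 and 4.58 FPKM in DHT libraries, against 0.0399, 0 and 0.105 FPKM in control libraries. Hif3a, a relative of the hypoxia-inducible factors, had 3.24, 3.36 and 3.02 FPKM in DHT libraries, against 0.0408, 0.0782 and 0.0618 FPKM in control libraries. All 3 genes were expressed in every DHT library and nearly absent from the control libraries.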
